A study of Mus musculus with 8 samples.

Results

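The Cadm (cell adhesion molecule) genes encode a small family of surface proteins of the immunoglobulin superfamily, also called nectin-like molecules. Each protein has immunoglobulin-like domains outside the cell, crosses the membrane once and binds a Cadm protein on the neighboring cell, either its own kind or another member. The short tail inside the cell binds protein 4.1 family members and PDZ scaffold proteins of the Cask and Mpp type, which tie the contact to the cytoskeleton. Cadm1 is known from epithelia, islet cells, mast cells and nerve cells, and is the ligand of Crtam on activated T cells and NK cells. Cadm2 and Cadm3 are mainly neural, and Cadm4 is known from epithelia and from the Schwann cells that wrap axons.

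The family was read in the pancreata of 8 female NOD (NOD/LtJ) mice, 12 weeks old, each against the same pool of pancreas RNA from 8 NOD.B10 (NOD.B10Sn-H2b/J) mice of that age. NOD mice develop spontaneous autoimmune diabetes, and NOD.B10 mice share their background but carry the H2b haplotype and do not become diabetic. Each mouse was labeled red (Cy5) and the pool green (Cy3) on every array, so a dye effect at a probe and a strain difference cannot be told apart, and the pool gives no spread among NOD.B10 mice. Replicates 1 to 4 lay on a first slide and replicates 5 to 8 on a second. In whole pancreas, fewer cells of a type and less RNA per cell cannot be told apart.

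The family was taken as all probes that the arrays annotate to Igsf4a (Cadm1), 2900078E11Rik and Igsf4d (both Cadm2), Igsf4b (Cadm3) and Igsf4c (Cadm4). This gave 9 of 41174 probes, for 4 of the genes behind 21597 symbols. The family was picked by name with its NOD to pool ratios already known, so those ratios are given here as a description, with no p. Where a member is said to be called, it passed the thresholds of a fit over the whole array that used the same ratios, and the call is no independent support. Probes of a gene are numbered by their brightness in the pool.

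Probe positions are on mm8. Igsf4c had a single probe, at chr7:24212825-24212884, annotated to NM_153112. Both Cadm2 probes lay on chromosome 16, 2900078E11Rik at chr16:66574073-66574132 and Igsf4d at chr16:66579562-66579621. The Igsf4b probes lay on chromosome 1, probe 1 at chr1:175172938-175172997, probe 2 at chr1:175171711-175171770 and probe 3 at chr1:175179713-175179772. Igsf4a probes 1 and 2 lay on chromosome 9 at chr9:47603562-47603621 and chr9:47601876-47601935.

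Igsf4a probe 3 differed from the other 8 in its design. It has 60 bases but spans 10573 bases, chr9:47550507-47561079, and so crosses a splice junction with an intron of 10513 bases. Of the 17 distinct introns of Cadm1 in the GENCODE M21 annotation (GRCm38), 1 had that length. It separates exon 5 (159 bases, chr9:47799372-47799530 in GRCm38) from exon 6 (100 bases, chr9:47810044-47810143 in GRCm38), both coding, and was present in 8 of the 10 annotated transcripts. The joined exon ends around that junction, matched by intron length, are shown because they place this probe inside the coding region. They are not the probe's own sequence, whose exact place on the junction was not known. Probes 1 and 2 lie 42.5 kb and 40.8 kb past the end of probe 3. Lower case is the last 30 bases of exon 5 and capitals are the first 30 bases of exon 6.

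Cadm1 exon 5 to exon 6 junction, GRCm38: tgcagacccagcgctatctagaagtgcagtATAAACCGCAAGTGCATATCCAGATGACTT

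A value printed as a log2 ratio is the deposited log10 ratio of red over green on the log2 scale, so that 1 is a doubling in NOD. A probe was tested with limma over the whole array when its red processed signal reached 25 on at least 4 of the 8 arrays, and was called at a change of at least 2-fold with a Benjamini-Hochberg adjusted p below 0.01. Where a spot gave no usable signal, the extraction software had put in a stand-in value set by the noise of the background. The software wrote a ratio of exactly 0 for many such spots, as it did for every Cadm2 spot. Red was well above background in 21.6% to 35.3% of the spots of an array and green in 57.6% to 60.7%, so the NOD channel limits what can be read.

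Of the 9 probes, 7 passed the signal filter, 1 was called higher in NOD, 0 were called lower and 6 were not called. Over the array 0.31% of 28105 tested probes were called higher and 1.41% lower, and nothing is read from the family's count beside these shares. Among the 12102 probes with red well above background on at least 4 arrays the balance turned, with 91 called higher and 42 lower. The median log2 ratio was -0.18 for the 7 probes and -0.09 for all tested probes. Only 3 of the 9 probes, Igsf4c and Igsf4a probes 1 and 2, had red signals well above background on at least 4 arrays. No member spot was marked irregular or saturated on any array.

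**Figure D1:**
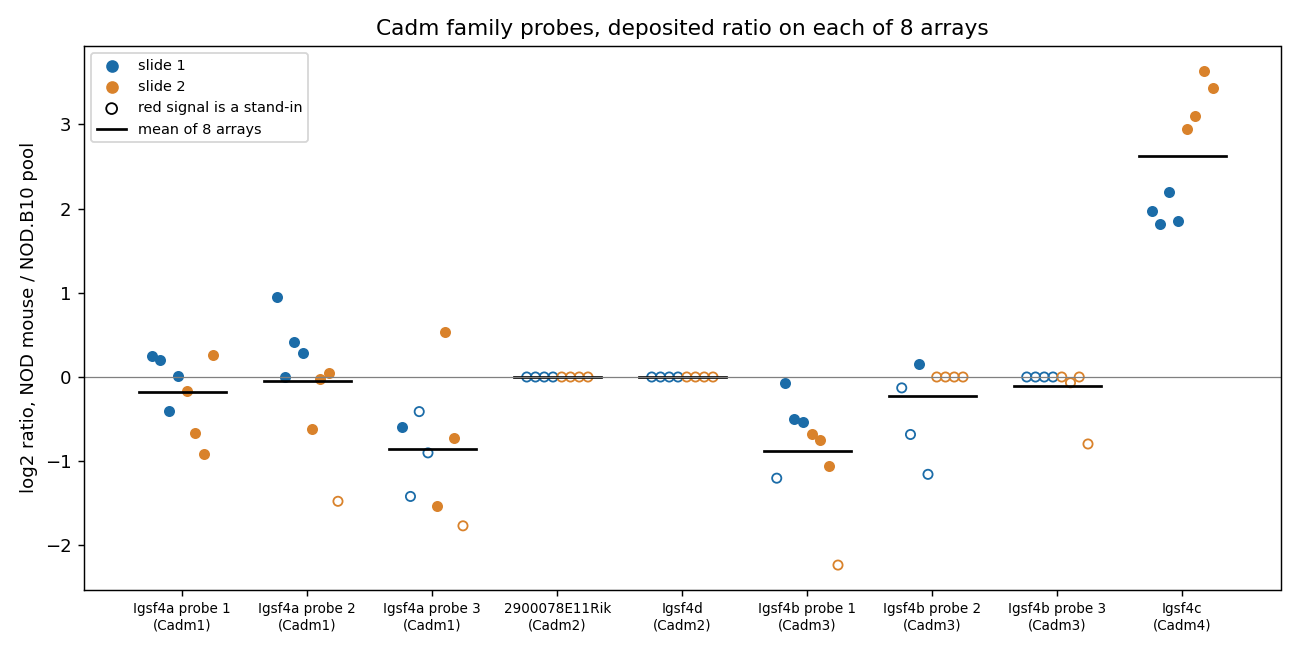
Deposited log2 ratio of NOD mouse over NOD.B10 pool (vertical axis) for each of the 9 Cadm family probes (horizontal axis), 1 point per array, colored by slide, with the mean as a black line. Open points have a red stand-in signal. Igsf4c lies above 1.81 on every array and higher on slide 2, the Cadm2 probes lie at 0 throughout, and the other probes lie at or below 0.95.

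Igsf4c (Cadm4) was the member with the largest deposited ratio. With median-centered signals it stood below 3 dim probes, Igsf4b probe 3, 2900078E11Rik and Igsf4d, whose red signals were stand-ins on all 8 arrays. Its log2 ratio was 1.98, 1.81, 2.19 and 1.86 in replicates 1 to 4. In replicates 5 to 8 it was 2.94, 3.10, 3.64 and 3.43. All 8 mice lay above the pool, with the mice of slide 2 above those of slide 1 and no overlap between the slides.

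The mean log2 ratio of Igsf4c was 2.62 ± 0.743 (SD, n = 8), which is 6.14-fold. With the deposited ratio it ranked 6 of 28105 tested probes from the highest. The red processed signal ranged from 268 to 744 and the green one from 46.7 to 89.7, and both were well above background on all 8 arrays. In the pool the probe stood at percentile 49.5 of all probes with a symbol, a mid-range signal.

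The size of the Igsf4c ratio depended on the scaling. With median-centered signals, that is background-subtracted signals shifted by the median ratio of each array, the mean was 1.99 and ranked 3391 of 28105. With normexp background correction followed by loess, the 8 log2 ratios ran from 0.23 to 0.42, all above the pool, and the mean of 0.34, below 2-fold, ranked 847. Normexp here adds an offset of 50 to signals that, at this probe, were smaller than the offset. Before dye normalization the background-subtracted red signal of Igsf4c was 7.79 to 14.3 units and the green one 14.5 to 27.3 units.

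Those low red readings belonged to the red channel as a whole. Among spots well above background in both dyes, red was below green in 99.76% to 99.99% over the arrays, and the median red signal was 0.0665 to 0.205 of the green one. At Igsf4c red was 0.419 to 0.801 of green, above the array's median on all 8 arrays. The deposited processing multiplied red far more than green to bring the dyes level, and at Igsf4c the green multiplier was 2.99 to 4.62.

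The red multiplier at Igsf4c differed between the slides. It was 28.1, 22.4, 21.5 and 23.5 in replicates 1 to 4. In replicates 5 to 8 it was 54.1, 85.6, 79.8 and 64.6. The slides did not overlap. Spots whose red signal was 0.8 to 1.25 times that of Igsf4c had a lower median multiplier on each of the 8 arrays, between 17.8 and 41.1 over the arrays. Igsf4c lay between the 5th and 95th percentiles of those spots on every array but that of replicate 6, where its 85.6 stood above the 95th at 81.1.

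The slide difference of Igsf4c was tested, since the slide played no part in choosing the family. The log2 ratio averaged 1.96 ± 0.170 (SD, n = 4) on slide 1 and 3.28 ± 0.314 (SD, n = 4) on slide 2, a difference of 1.32 with an exact two-sided permutation p of 0.0286. This is the smallest p that 4 against 4 arrays allow, and adjusted over the 7 member probes whose ratio was not 0 on every array it was 0.2. These are not the 7 that passed the signal filter, since they include Igsf4b probe 3 and leave out 2900078E11Rik. The processed red signal moved in the same way, at 8.23 against 9.35 on the log2 scale with no overlap (exact permutation p = 0.0286, adjusted 0.0667), while green overlapped (6.27 against 6.07, exact permutation p = 0.457). The processed red signals of Igsf4b probes 2 and 3 did not overlap either, at slide differences of 1.43 and -0.85 with the same p. Red was a stand-in there on 7 and 8 arrays.

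Before dye normalization the direction was not the same. The background-subtracted red signal of Igsf4c averaged 12.7 ± 1.70 units on slide 1 and 9.47 ± 1.90 on slide 2 (SD, n = 4 each, exact permutation p = 0.0857), with overlap. With background-subtracted signals centered on the median ratio of each array, the log2 ratio averaged 1.87 ± 0.179 on slide 1 and 2.11 ± 0.754 on slide 2 (SD, n = 4 each), overlapping, with an exact permutation p of 0.6. The part of the multiplier in the slide difference was not tested beyond these values.

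**Figure D2:**
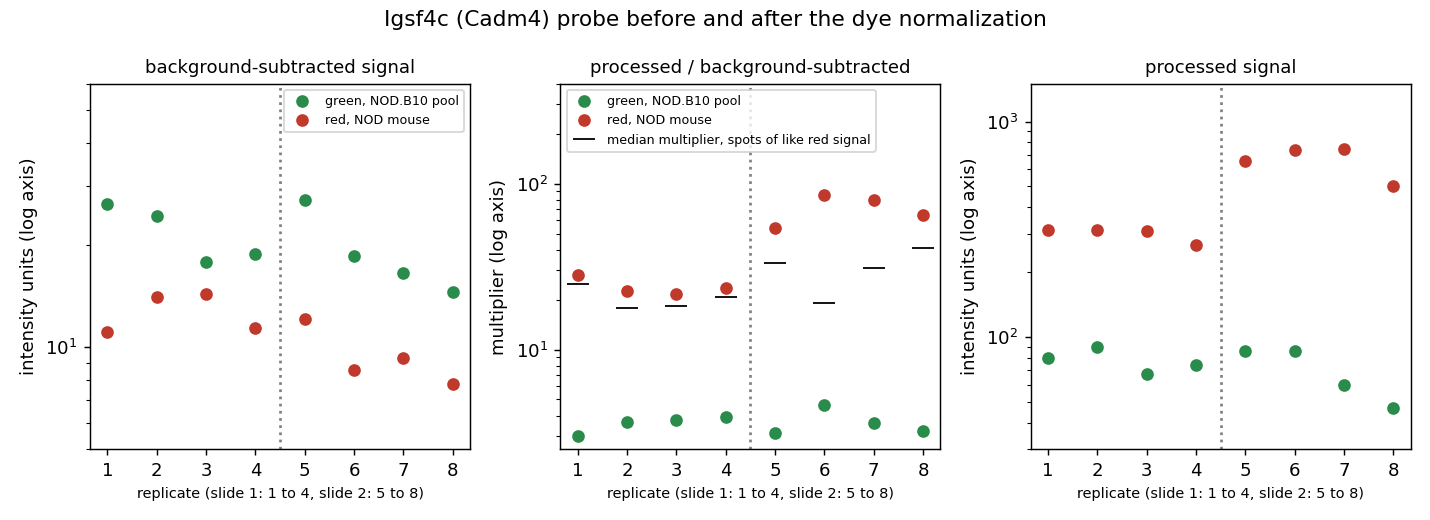
Igsf4c (Cadm4) signal on each array (horizontal axis, replicates 1 to 8, slides divided by the dotted line), on log vertical axes, as background-subtracted intensity (left), as the multiplier from that value to the processed signal (middle) and as processed intensity (right). Red stands for the NOD mouse, green for the pool and black bars for the median red multiplier of spots whose red signal was like that of Igsf4c. Red lies below green at the left and above green at the right, and the red multiplier rises from at most 28.1 on slide 1 to at least 54.1 on slide 2.

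A slide difference of this size was uncommon. Of 28105 tested probes, 6.6% had slide 2 above slide 1 with no overlap and 6.31% the reverse. Among the 7388 tested probes with red well above background on all 8 arrays, the difference of slide 2 minus slide 1 had a median of 0.04 and ran from -0.59 at the 5th to 0.62 at the 95th percentile. In that set 20 probes (0.271%) had a larger difference than the 1.32 of Igsf4c.

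The probes beside Igsf4c on chromosome 7 are given as a description. Igsf4c was known to rank near the top of the array, so lower ratios beside it were near certain in advance and nothing is read from them. Within 200 kb of the Igsf4c probe lay 18 other probes for 13 symbols. Of these 17 were tested and 0 called, a number too small to read against the 0.31% and 1.41% of the array. Only 8 of the 18 had red well above background on at least 4 arrays. Mean log2 ratios ran from -0.99 to 0.37 with a median of -0.12, and at the probes of both ends red was well above background on 0 arrays. The nearest with a gene symbol was Zfp428, a zinc finger gene 11.5 kb away, at -0.08 ± 0.284 (SD, n = 8). Xrcc1, a DNA repair scaffold gene 69.2 kb away, was at -0.13 ± 0.217 (SD, n = 8).

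Igsf4a (Cadm1) probes 1 and 2 had the highest green signals among the member probes and gave ratios on both sides of 0. Signals of different probes also depend on how well each probe binds, so they are not compared as amounts of RNA. Probe 1 had log2 ratios of 0.25, 0.20, -0.40 and 0.01 in replicates 1 to 4 and of -0.17, -0.66, -0.92 and 0.27 in replicates 5 to 8. Probe 2, 1686 bases away, had 0.95, 0.00, 0.41 and 0.28 in replicates 1 to 4 and -0.62, -0.03, 0.05 and -1.48 in replicates 5 to 8. Mice above and below the pool were mixed at each probe, and the lowest mouse was replicate 7 at probe 1 but replicate 8 at probe 2, where its red signal was a stand-in.

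The means were -0.18 ± 0.446 for Igsf4a probe 1 and -0.05 ± 0.725 for probe 2 (SD, n = 8 each), each smaller than the spread between arrays. With median-centered signals the means were -0.43 and -0.53, and with normexp and loess -0.08 and -0.03. Without replicate 7 the deposited mean of probe 1 was -0.07. The green signals had medians of 343 and 258 units, percentiles 72.7 and 68.9 of the pool. In the red dye, 7 arrays rose well above background at probe 1 and 4 at probe 2. Without replicate 8 the mean of probe 2 was 0.15, and without replicate 5 it was 0.03, so its sign rested on single mice.

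Igsf4a probe 3, the junction probe of Cadm1, had a lower mean ratio than the other Cadm1 probes. Its log2 ratio was -0.60, -1.42, -0.41 and -0.90 in replicates 1 to 4 and -1.53, 0.53, -0.73 and -1.77 in replicates 5 to 8. All mice but replicate 6 lay below the pool, with a mean of -0.85 ± 0.738 (SD, n = 8). Probe 2 minus the junction probe was 0.80 ± 0.677 (SD, n = 8) and positive in 7 of 8 mice, and probe 1 minus the junction probe was 0.68 ± 1.07 (SD, n = 8) and positive in 6.

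The difference among the Cadm1 probes came with a difference in signal. The junction probe had a green median of 58.5 units against 258 at probe 2, its red signal rose well above background on 0 arrays, and 4 arrays held a red stand-in. With median-centered signals its mean turned to 0.41, and with normexp and loess it was -0.02. Whether the junction or the low signal set its ratio was not tested.

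Cadm2 was read by its probes 2900078E11Rik and Igsf4d, and the deposited ratio was exactly 0 on all 8 arrays at each. The processed red signal of 2900078E11Rik was 16.9, 19.4, 25.1 and 38.5 units in replicates 1 to 4 and 33.3, 49.2, 59.0 and 36.7 in replicates 5 to 8. Its green signal was 10.1, 9.25, 9.63 and 24.0 units in replicates 1 to 4 and 9.09, 9.33, 8.02 and 12.6 in replicates 5 to 8. Red lay above green on all 8 arrays, but red was a stand-in value on all 8 and green on 5, and neither dye was well above background on any array.

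When the ratio of 2900078E11Rik was instead formed from the processed signals, its log2 ratio averaged 1.57 ± 0.780 (SD, n = 8, range 0.68 to 2.88), and the fit over the array called it higher. The same held with median-centered signals, at 2.52, where 21.3% of all tested probes were called higher. With normexp and loess, where 0.217% were called higher, it was -0.03 and not called. The background-subtracted red signal behind these stand-ins ran from -4.43 to 1.39 units, below 0 on 7 of 8 arrays.

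Probes without any usable red signal gave a similar ratio. On the array 2631 tested probes had red stand-ins on all 8 arrays, and with the ratio of processed signals 1626 of them (61.8%) were called higher, against 12.3% of all tested probes. Their mean log2 ratio had a median of 1.43 and quartiles of 0.83 and 1.80, which enclose the 1.57 of 2900078E11Rik.

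Igsf4d, the other Cadm2 probe, reached a red signal of 25 on 3 arrays and was not tested. Its processed red signal ranged from 18.3 to 41.3 units, a stand-in on all 8 arrays, and its green signal from 9.09 to 20.7 units. The ratio of processed signals averaged 0.97 ± 0.682 (SD, n = 8), and with normexp and loess it was -0.03. A Cadm2 difference between NOD and the pool was not detectable at this signal in either direction.

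**Figure D3:**
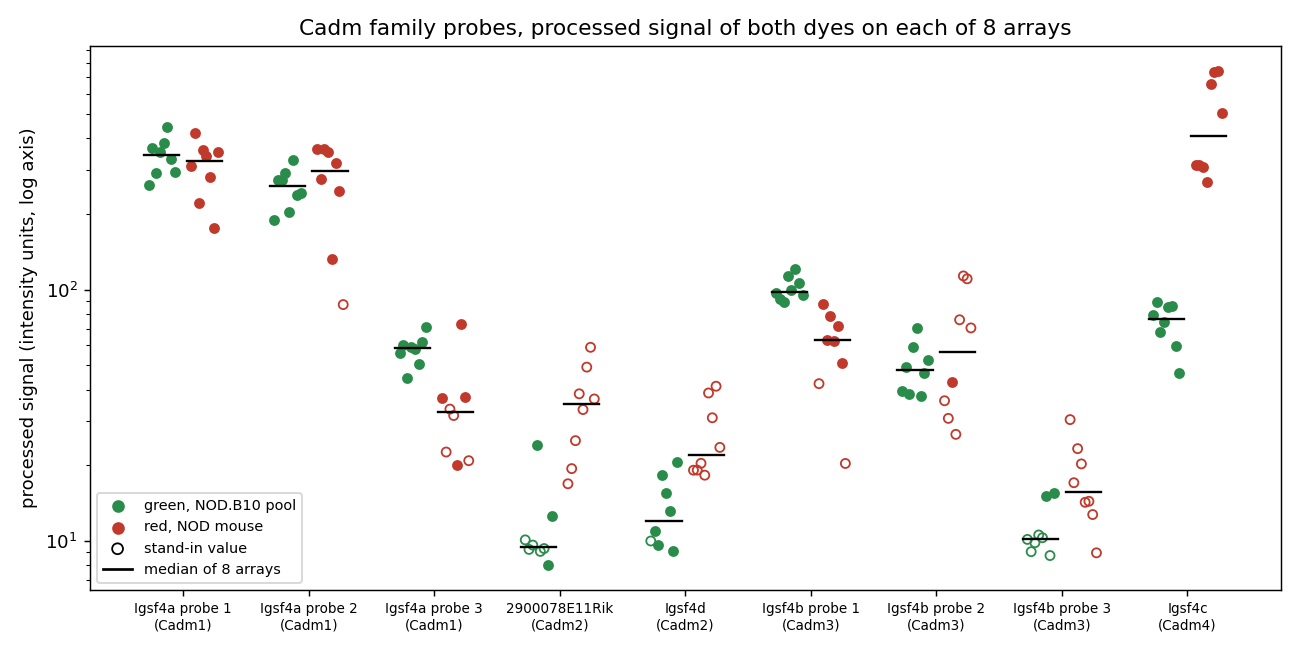
Processed signal of the NOD.B10 pool (green) and of the NOD mouse (red), in intensity units on a log axis, for each Cadm family probe (horizontal axis), 1 point per array, with medians as black lines and stand-in values as open points. The Cadm2 probes and Igsf4b probe 3 have open red points throughout, and Igsf4c alone has the dyes fully apart with filled points in both.

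Igsf4b (Cadm3), a mainly neural member, was read by 3 probes. Probe 1 had log2 ratios of -1.20, -0.07, -0.50 and -0.53 in replicates 1 to 4 and -0.67, -0.75, -1.06 and -2.23 in replicates 5 to 8. All 8 mice lay below the pool, and the lowest values, in replicates 1 and 8, were those with a red stand-in. The mean was -0.88 ± 0.649 (SD, n = 8), and it ran from -0.99 to -0.68 when each mouse was left out.

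Igsf4b probe 1 had a green median of 98.3 units and was well above background in green on all 8 arrays, but in red on 0. Its size was not kept by other scalings, with a mean of -0.03 for median-centered signals and 0.02, on the other side of 0, for normexp and loess. Probe 2 averaged -0.23 ± 0.453 (SD, n = 8) with 4 arrays at exactly 0 and red stand-ins on 7, and its mean turned to 0.19 with the ratio of processed signals. Probe 3, annotated to a cDNA clone, failed the filter and had a ratio of 0 on 6 arrays.

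**Figure D4:**
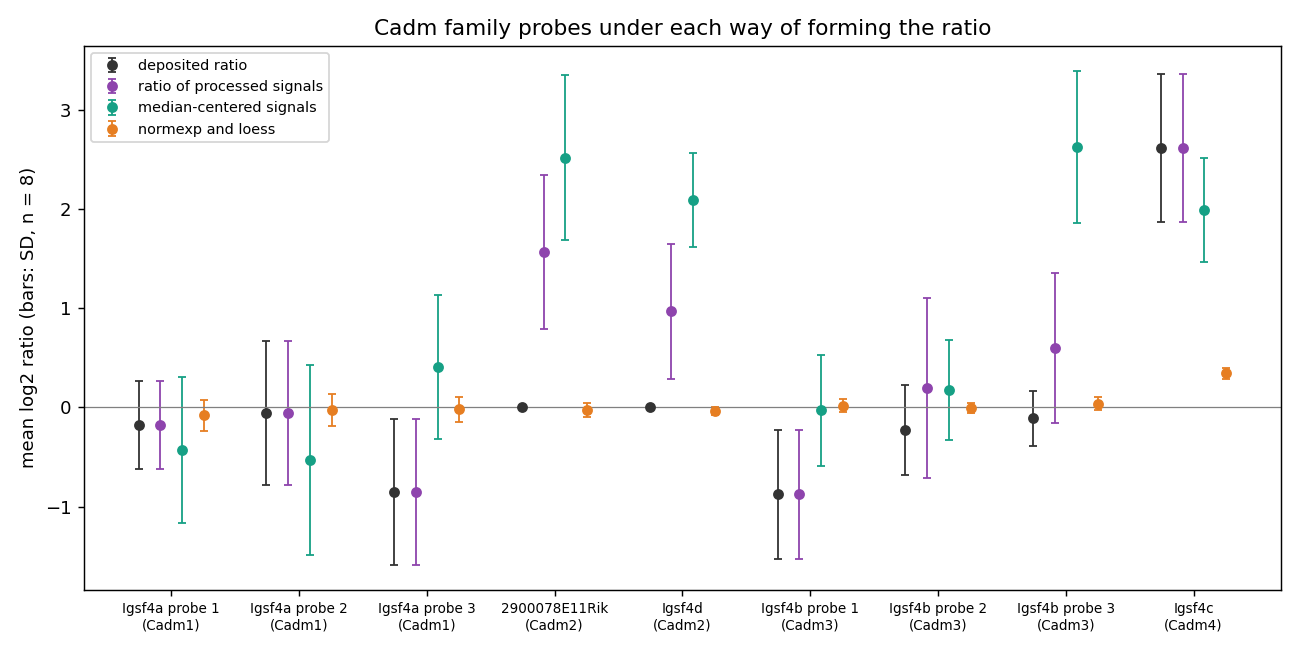
Mean log2 ratio of NOD over pool (vertical axis, bars are SD, n = 8 arrays) of each Cadm family probe (horizontal axis) for the deposited ratio, the ratio of processed signals, median-centered signals, and normexp with loess. Igsf4c is above 0 in all 4, at 2.62, 2.62, 1.99 and 0.34, and the probes with red stand-ins on all arrays (2900078E11Rik, Igsf4d and Igsf4b probe 3) rise to 2.09 or more with median-centered signals and lie within 0.04 of 0 with normexp and loess.

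No slide difference of a member passed adjustment. With 4 against 4 arrays and 7 probes a single probe could not pass, since Igsf4c at the smallest possible p was adjusted to 0.2 (exact permutation). With the deposited ratio, the next in size after Igsf4c was that of Igsf4a probe 2, at -0.93 (exact permutation p = 0.0571, adjusted 0.2), with slide 1 at 0.41 ± 0.396 and slide 2 at -0.52 ± 0.705 (SD, n = 4 each) and overlap. With median-centered signals the slides of this probe did not overlap, at a difference of -1.65, and neither did those of the Cadm1 junction probe, at 1.22 (exact permutation p = 0.0286, adjusted 0.1, for each). Over the array 10.8% of tested probes had slide 2 below slide 1 with no overlap on this scale and 7.25% the reverse, and the junction probe's red signal was well above background on 0 arrays.

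The pool is the same RNA on every array, so the spread of its green signal is technical. On the log2 scale its SD over the 8 arrays was 0.247 at Igsf4a probe 1, 0.320 at Igsf4c and 0.151 at Igsf4b probe 1. The SD of the red signal, which holds the spread between mice, between slides and of the red dye itself, was 0.413, 0.626 and 0.672 at the same probes. The red SD was above the green SD at all 9 member probes, among them the 3 with red stand-ins on all 8 arrays, so it is no measure of the mice alone.

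The family's known partners were taken from lists of genes with a known role. The list of extracellular ligands and nectin relatives and the list of cytoplasmic partners named 31 genes together, of which 27 had 71 probes and 58 probes were tested. Of these 0 were called higher and 2 lower, against 0.31% and 1.41% over the array, and the 2 lower calls are 3.45% of the probes tested. An unadjusted limma p below 0.05 was found for 19 partner probes (32.8%) and for 33.8% of all tested probes.

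On the outer side, Crtam, the T cell receptor for Cadm1, had a single probe that failed the filter, at -0.63 ± 0.811 (SD, n = 8) with red stand-ins on 6 arrays. The nectins, adhesion proteins related to the Cadm family, stayed within 1 on the log2 scale. Pvrl1 (nectin 1) was at 0.26, Pvrl2 (nectin 2) at -0.28 and -0.91, Pvrl3 (nectin 3) at -0.26, -0.35 and -0.38, and Pvrl4 (nectin 4) at -0.60, none of them called by limma. The second Pvrl4 probe, at 0.13, was not tested. Over the 8 tested genes of the list, 1 probe each, the median was -0.06 with 4 above and 4 below 0.

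On the inner side the 18 tested genes had a median of -0.15, with 4 above and 13 below 0, beside -0.09 for all tested probes. The calls were 1 probe of Epb4.1, the protein 4.1 gene, at -1.28 ± 0.370 (SD, n = 8, limma adjusted p = 0.00108), and 1 probe of Pard3, a polarity scaffold gene, at -1.18 ± 0.590 (SD, n = 8, limma adjusted p = 0.00726). Both were below the pool in 8 of 8 mice, and red was well above background on 0 arrays at each. The brightest probes of these genes were not called, at 0.25 for Epb4.1 and -0.08 for Pard3. The Pard3 call was lost when any mouse was left out and with the plain one-sample statistic, and both calls were lost with median-centered signals, with normexp and loess, and when red had to be well above background on 4 arrays.

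**Figure D5:**
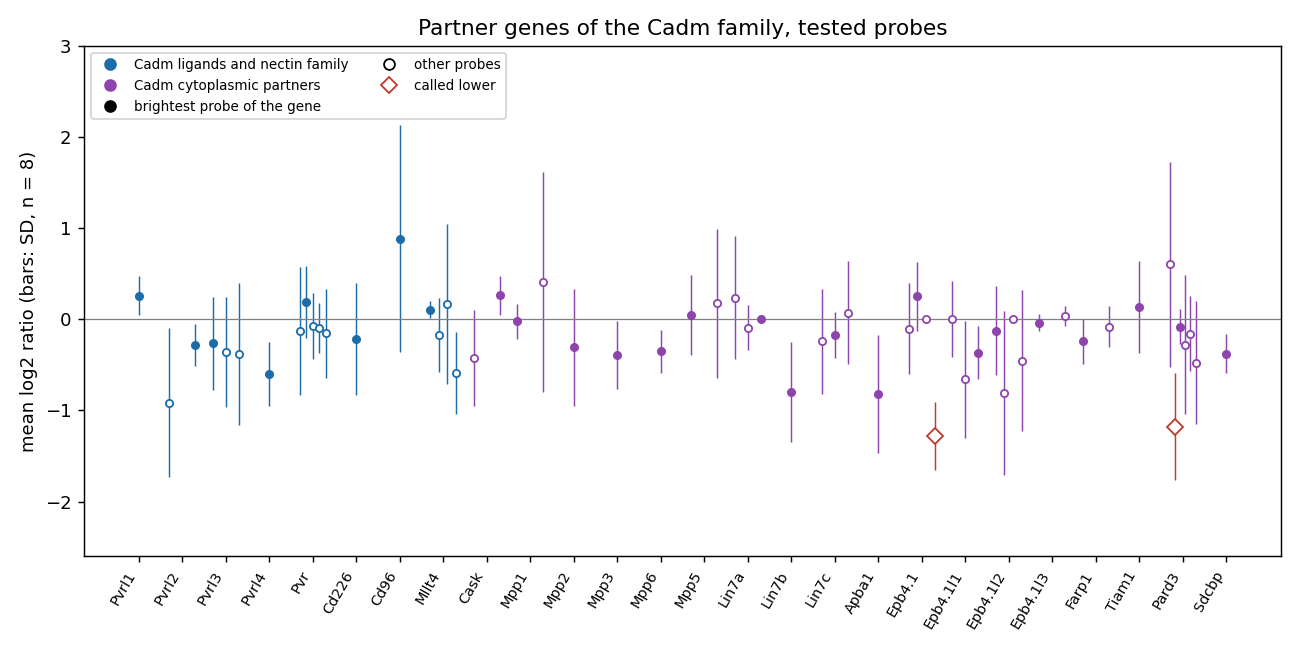
Mean log2 ratio of NOD over pool (vertical axis, bars are SD, n = 8 arrays) of the 58 tested probes for the ligand and nectin genes (blue) and the cytoplasmic partner genes (purple), grouped by gene along the horizontal axis. Filled points are the brightest probe of a gene and red diamonds the 2 probes called lower, of Epb4.1 and Pard3, where the brightest probe lies near 0.

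Cell types that carry Cadm proteins were followed through marker lists, 1 probe a gene. The median log2 ratio was 0.60 for T cell markers, 0.44 for B cell and plasma cell markers, -0.17 for mast cell markers, -0.54 for islet endocrine markers, -0.09 for duct and epithelial markers, 0.08 for acinar markers and -0.12 for Schwann cell and neuron markers. Of 116 tested probes in these lists 0 were called higher and 2 (1.72%) lower, near the 0.31% and 1.41% of the array. Those called lower were Ptprn, of islet secretory granules, at -1.09 (limma adjusted p = 0.00766) and Elavl4, a neuronal RNA-binding protein gene, at -1.22 (limma adjusted p = 0.00401). At Elavl4 red was a stand-in on all 8 arrays and well above background on 0, and at Ptprn it was well above background on 1. With median-centered signals the means were -0.60 for Elavl4 and -0.67 for Ptprn, and with normexp and loess -0.10 and -0.06. Among lymphocyte markers with red well above background on at least 4 arrays, Lck was at 2.30, Igj at 1.57 and 1.51, Cd5 at 1.32, Cd79b at 1.18 and Ms4a1 at 1.01. The others with such signals were lower, Cd3e at 0.61, 2010001M09Rik at 0.44, Cd4 at 0.19 and Sdc1 at -0.17, and none of these markers was called. A brighter probe annotated to Cd8b1, at -0.33 with red well above background on 7 arrays, is placed on chromosome 5. One annotated to Ela2, in the acinar list, is placed on chromosome 10, while the genes meant, Cd8b1 and Cela2a, lie on chromosomes 6 and 4. Without these probes the medians were 0.60 for T cell and 0.05 for acinar markers.

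The summed level of a list in each mouse, as its mean log2 ratio, ran from 0.18 to 1.21 for T cell markers, without the misplaced probe, above 0 in 8 of 8 mice, and from -0.16 to 1.03 for B cell and plasma cell markers. It ran from -0.41 to 0.15 for Schwann cell and neuron markers and from -0.32 to -0.04 for duct and epithelial markers, the cell types that Cadm4 is known from. Red was well above background on at least 4 arrays for 4 of 12 T cell genes, 8 of 12 duct and epithelial genes and 4 of 16 Schwann cell and neuron genes. The part of these cell types in the Igsf4c ratio was followed only across mice.

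Igsf4c and Igsf4a probe 1, the member probes with red well above background on at least 6 arrays, were compared with the 7 marker lists over the 8 mice, 14 relations in all. None passed adjustment. The strongest was that of Igsf4a probe 1 with acinar markers, at Pearson's r of -0.88 (exact permutation p = 0.00694, adjusted 0.0972) and Spearman's rho of -0.86 (exact permutation p = 0.0107, adjusted 0.15) with the list as first drawn up. Without the Ela2 probe, whose red signal was well above background on 0 arrays, r was -0.75 (exact permutation p = 0.0405, adjusted 0.426) and rho -0.74 (exact permutation p = 0.0458, adjusted 0.403). On that list r was -0.88 without the 2 mice farthest from the median of the acinar markers and -0.67 after subtracting slide means (exact permutation within slides, p = 0.139, adjusted 0.743).

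Because Igsf4c fell into a separate cluster on each slide, and 4 mice are too few for a relation within a slide, its relations to the lists are given only after subtracting slide means. Without the misplaced probes they ran from -0.31 with duct and epithelial markers to 0.26 with islet endocrine markers, and the smallest adjusted p over them was 0.743 (exact permutation within slides).

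The genes whose ratios were most like those of a member over the 8 mice, of 6222 candidates with red well above background on all arrays, are given as a description. The highest of 6222 correlations over 8 mice are high by selection, and no chance level was computed for them. For Igsf4c the 5 highest over all mice were Tmem134, H2-Ke2, Tkt, Scand1 and Prss8, all with a higher mean ratio on slide 2 than on slide 1, and no correlation is given for them because Igsf4c clustered by slide. After subtracting slide means a different 5 came first, 3300001A09Rik (r = 0.97), Ptges3, Phb2, Inmt and Timm22 (each r = 0.95). None of these 10 genes was called. For Igsf4a probe 1 they were Cox18 (r = 0.98), Ash2l (0.97), Prpf31 (0.96), Smndc1 (0.95) and 4833439L19Rik (0.95). After subtracting slide means Cox18 (r = 0.98) was the only one of them still among the first 5.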

How the data were processed

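Pancreas RNA of 8 NOD mice was compared with a pool of 8 NOD.B10 mice on two-color Agilent 4x44K arrays. The authors extracted the scans with Agilent Feature Extraction (version 10.7.3.1). The deposited values used here were a log10 ratio (red to green) and 2 intensities per dye, one after background subtraction and the processed one, which was also detrended and dye-normalized. Deposited flags (other values) mark stand-ins and spots well above background. Array signals have no depth, and the 8 arrays limit precision. The numbers 1 to 8 only name mice, and nothing in the labels gives separate litters or days.

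Log10 ratios were converted to log2 and spots of a probe averaged. Named probes whose processed red intensity reached 25 on 4 arrays or more entered limma 3.58.1 (in R 4.3.3) for a one-sample moderated test with Benjamini-Hochberg adjustment, after checks on simulated data. Slides and relations were tested by exact permutation in Python 3.11.15 (numpy 2.4.6, pandas 2.3.3, scipy 1.17.1, matplotlib 3.10.9, and the R package data.table, version 1.17.8). Alternatives were the ratio of processed signals, median-centered signals (background-subtracted, with the negative-control SD as a floor, and each array shifted by its median ratio), normexp (offset 50) with loess, other filters, statistics and thresholds, slide as a covariate, and each mouse left out. Added after the values were seen were each slide alone, pairings permuted within slides, the chromosome 7 neighbors, the probes with stand-ins, marker lists without probes on another chromosome than the listed gene (from RefSeq, GRCm38), and the multipliers at Igsf4c.

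Members, lists and tests were chosen with earlier results of these data known. Genes named are all member probes, list genes called or with a mean log2 ratio of at least 1 in size and red well above background on at least 4 arrays, Crtam and the nectins, the 5 genes most like each well measured member, and, picked after their values were seen, neighbors of Igsf4c, the other well measured lymphocyte markers and the genes most like Igsf4c after subtracting slide means. List genes were chosen by known role. The arrays give no sequence for their probes, and the junction sequence comes from GENCODE M21 transcripts.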

Additional observations from a re-analysis of the deposited data

Results flagged for a closer look

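Values of member probes over the 8 arrays were searched for a mouse far from the others by Dixon's criterion, which chance meets in about 1 in 20 groups, and 2 of 25 groups met it. The log2 green signal of 2900078E11Rik (Cadm2) was 4.59 in replicate 4, and the nearest of the others was 3.66, a gap of 0.587 of the whole range. The green signal is the NOD.B10 pool, the same RNA on every array. It was a stand-in on 5 arrays but not in replicates 4, 7 and 8, and was well above background on 0 arrays. The log2 ratio of Igsf4b probe 3 (Cadm3) was -0.80 in replicate 8, and the nearest was -0.07, a gap of 0.914 of the range, but the software had set 6 of the other arrays to exactly 0 and red was a stand-in on all 8, so a value other than 0 stands apart by construction and this one is not read as a mouse that differs.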

How the results depend on the processing

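Over the array 484 probes were called (87 higher, 397 lower). The count was 4160 with the ratio of processed signals (3470 higher, 690 lower), 7248 with median-centered signals (5976 higher, 1272 lower), 87 with normexp and loess (61 higher, 26 lower), 133 when red had to be well above background on 4 arrays (91 higher, 42 lower), 308 with the plain statistic, 919 at an adjusted p of 0.05, 1109 at a fold of 1.5, and 221 to 349 with each mouse left out. The family had 1 call, and 2 with the ratio of processed signals or median-centered signals, where 2900078E11Rik joined Igsf4c, 0 with normexp and loess, and 1 to 1 with each mouse left out. The partner genes had 2 calls, 10 with the ratio of processed signals, 14 with median-centered signals, 0 with normexp and loess, 0 with red well above background on 4 arrays, 1 with the plain statistic, and 1 to 1 with each mouse left out. Median-centering moved the median of all tested probes from -0.09 to 0.09. The causes were not tested. The mean log2 ratio of Igsf4c was 2.47 to 2.73 with each mouse left out. No paired analysis was possible because all 8 arrays form 1 group. Red signals near background limit 6 of the 9 member probes.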
